A study of Homo sapiens with 4 samples.

Results

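The AP-1 transcription factor is formed by pairs of subunits, and the 10 subunit genes FOS, FOSB, FOSL1, FOSL2, JUN, JUNB, JUND, ATF3, BATF2 and BATF3 were read out of 61228 genes counted in each library by their gene symbol. RNA-seq was carried out on H1792, an established human lung cancer line labelled WT for genotype. Cells in the control group had received DMSO, the solvent, and those of the other group ACBI1, each for 96 h. ACBI1 is a PROTAC that recruits the VHL ubiquitin ligase to PBRM1 and to SMARCA2 and SMARCA4, which supply the ATPase of SWI/SNF, a family of nucleosome remodellers. The labels write its dose as 1 mM, a unit that the counts cannot check. Each group held 2 libraries. The labels do not say whether these came from separate cultures, so the tests measure the spread between libraries, which may be technical. Which AP-1 subunits differed between cells given the degrader and control cells is the question addressed here.

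AP-1 subunits carry a basic region that contacts DNA and a leucine zipper that joins them in pairs. JUN proteins pair with each other or with FOS-type proteins, whereas FOS-type proteins need a JUN-type partner to bind. ATF3 and the BATF proteins, which lack the activation domains of FOS, also pair with JUN-type proteins. FOS, FOSB, JUN, JUNB and ATF3 are classic immediate early genes, switched on within minutes by growth factor, stress and cytokine signals through the MAP kinases. FOSL1 and FOSL2 follow more slowly, and FOSL1 is known for its high level in tumours with active RAS signalling. AP-1 pairs bind TGANTCA and related sites, many of them in enhancers, where SWI/SNF complexes also act.

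Gene counts summed to between 64281850 and 86010100 per library. Levels are given as CPM, counts scaled to a common library size, with TMM factors, and values of a pair are those of replicate 1, then replicate 2. Of the degrader's targets, which ACBI1 removes as proteins, SMARCA4 was at 284 and 216 CPM in the control and at 414 and 398 CPM with ACBI1 (edgeR adjusted p 0.0583). SMARCA2 was at 22.8 and 24.4 CPM against 17.5 and 18.4 CPM (adjusted p 0.163), and PBRM1 at 55.0 and 45.3 CPM against 55.6 and 51.6 CPM (adjusted p 0.734). Of the 7 markers of epithelium, each had counts, and their summed level was 984 and 1044 CPM with DMSO and 325 and 205 CPM with ACBI1, with 4 of the 6 tested called lower. KRT7 alone gave 678 and 680 CPM with DMSO and 179 and 60.3 CPM with ACBI1. EPCAM went the other way, from 5.38 and 2.78 CPM to 15.6 and 4.84 CPM, with groups that overlapped (adjusted p 0.179). CDH1 had only 4 to 16 counts per library and was not tested. The lung markers NKX2-1, SFTA3 and SCGB1A1 had 0 counts in each library, which allows at most 0.0335 to 0.0458 CPM (3 counts), and all 8 lung markers together reached 0.717 to 2.1 CPM. Fibroblast markers, 5 of 5 with counts, summed to 356 and 790.1 CPM with DMSO and 71.7 and 223 CPM with ACBI1, with 3 of 5 called lower. Beside these calls for epithelial and fibroblast markers, 10.6% of all genes tested were called lower. The 4 endothelial markers summed to 12.6 and 48.5 CPM with DMSO, of which PECAM1 gave 12.2 and 48.1 CPM, and to 0.0112 and 0.0610 CPM with ACBI1. The 5 immune markers never exceeded 0.778 CPM together, with CD3E at 0 counts. The part of these shifts in the results on AP-1 was not tested. In RNA from whole cultures, fewer cells with a transcript and less of it per cell cannot be told apart.

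All 10 subunit genes passed the filter on low counts and were tested. JUN, FOSL2 and ATF3 fell with ACBI1, between 2.77-fold (ATF3) and 3.26-fold (JUN). No subunit rose by the test, and FOSB and FOSL1 did not pass it either. In numbers, 3 of 10 subunits had an edgeR adjusted p under 0.05, all 3 lower. Among the 19159 genes tested, 17.4% were called, 10.6% lower and 6.75% higher. No subunit was called higher by edgeR, DESeq2 or limma-voom, and at an unadjusted p under 0.05 edgeR had 1 higher, BATF3, and 4 lower. At that unadjusted threshold, 2941 of the 19159 genes tested were higher and 3549 lower. The median log2 change of the 10 was -0.83, beside 0.01 for all genes tested. Leaving out a library moved this median to between -1.21 (without DMSO replicate 1) and -0.26 (without DMSO replicate 2). Both ACBI1 libraries lay below both DMSO libraries for 5 subunits and above them for 1. Of all genes tested, 63.2% had groups that did not overlap, 32.2% lower and 31.1% higher with ACBI1.

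**Figure D1:**
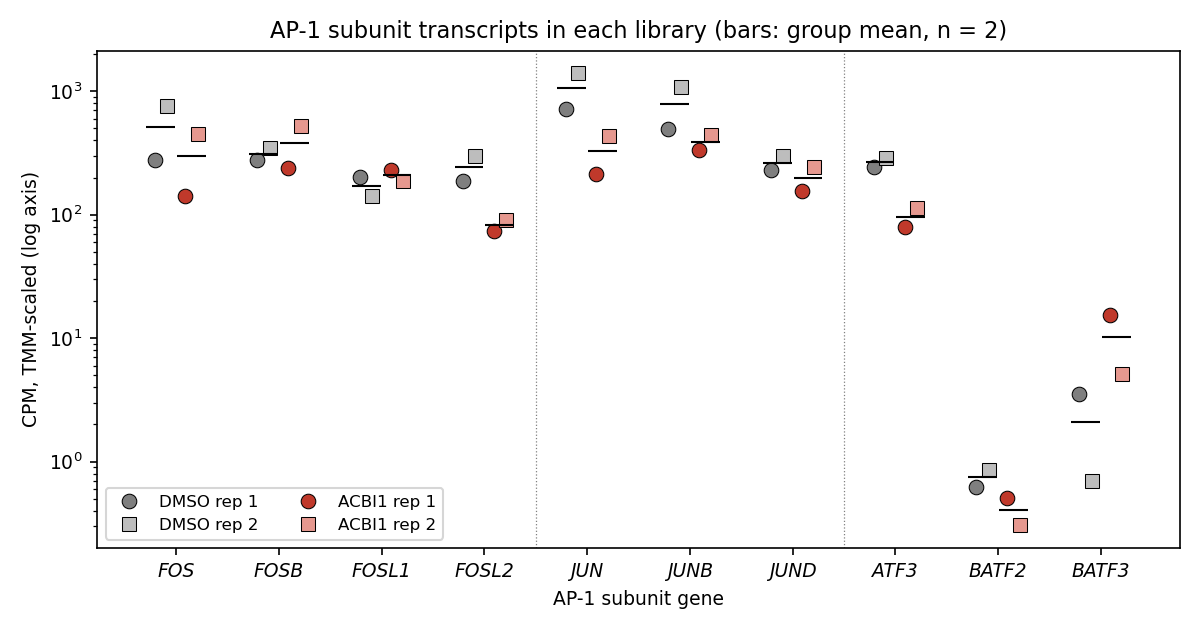
TMM-scaled CPM (log axis) of the 10 AP-1 subunit genes in the 4 libraries, with circles for replicate 1, squares for replicate 2 and bars for the group mean. JUN, FOSL2 and ATF3 show both ACBI1 libraries below both DMSO libraries, while the groups overlap for FOS, FOSB, FOSL1 and JUND.

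The JUN-type subunits are the partners on which FOS-type proteins depend. JUN, the founding member and a strong activator, measured 723 and 1396 CPM in control cells but 213 and 437 CPM after ACBI1. Both ACBI1 libraries were lower, although the libraries within a group differed 1.93-fold with DMSO and 2.05-fold with ACBI1. The fitted difference was 3.26-fold, or -1.70 on the log2 scale with SE 0.44 (edgeR adjusted p 0.0473). This call was lost without DMSO replicate 2 (log2 change -1.15, adjusted p 0.0610) and without ACBI1 replicate 1 (-1.28, adjusted p 0.11). JUN has a single exon of 3540 bases on the minus strand of chromosome 1, at chr1:58780788-58784327 (GENCODE 29, GRCh38).

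JUNB, which activates more weakly than JUN and can restrain it, was at 492 and 1077 CPM in control cells and at 337 and 444 CPM after ACBI1. The groups did not overlap, yet the DMSO libraries differed 2.19-fold from each other. With a log2 change of -1.01 (SE 0.38), JUNB did not pass edgeR's test (adjusted p 0.122). DESeq2 did call it lower (adjusted p 0.0379), as did edgeR without DMSO replicate 1 (log2 change -1.46, adjusted p 0.00369). JUNB, at chr19:12791496-12793315 on the plus strand, is also a single exon, and 14.2% of it is shared with HOOK2 on the other strand, where reads may be dropped or given to the wrong gene. JUND, the JUN-type subunit known for steady expression in resting cells, was at 228 and 298 CPM with DMSO and at 155 and 245 CPM with ACBI1. JUND is a single exon at chr19:18279760-18281622 on the minus strand. Its groups overlapped, and the log2 change of -0.40 (SE 0.27) did not pass (adjusted p 0.347).

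The start-site regions of JUN and JUND are shown for the different matches they hold before the start. Promoters came from RefSeq (GRCh38.p14), 250 bases before to 50 bases after the start, and 8 of 10 subunits matched. Searched on both strands were TGANTCA, the classic AP-1 site, TGACGTCA, the cAMP response element that JUN and ATF proteins can bind, its variant TGACATCA, and TGACGT, which lies within every TGACGTCA. Capitals mark the matches. JUN (chr1:58783998-58784297, minus strand) held TGACATCA at 67 to 60 bases before the start, a match found in 2.61% of all 35116 promoters. Of the 12359 genes tested with a promoter listed, 2.14% held it in any of their promoters. Shares of promoters and shares of genes are unlike units. JUND (chr19:18281573-18281872, minus strand) held TGACGTCA at 200 to 193 bases before the start, and a second TGACGT on the other strand at 87 to 82 bases before it. TGACGTCA was found in 1.85% of all promoters and in any promoter of 3.70% of the genes tested that had one listed.
JUN: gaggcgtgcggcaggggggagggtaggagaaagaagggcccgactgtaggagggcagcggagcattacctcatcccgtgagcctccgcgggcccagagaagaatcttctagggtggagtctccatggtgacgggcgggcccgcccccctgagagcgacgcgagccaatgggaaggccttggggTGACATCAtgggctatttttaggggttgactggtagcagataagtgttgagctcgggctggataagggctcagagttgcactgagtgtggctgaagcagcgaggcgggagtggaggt
JUND: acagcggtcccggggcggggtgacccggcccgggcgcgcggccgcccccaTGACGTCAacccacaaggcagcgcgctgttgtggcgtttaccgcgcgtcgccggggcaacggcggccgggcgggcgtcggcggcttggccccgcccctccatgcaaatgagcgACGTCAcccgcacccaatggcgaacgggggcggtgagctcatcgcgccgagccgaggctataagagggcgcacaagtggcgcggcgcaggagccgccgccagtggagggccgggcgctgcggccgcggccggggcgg

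Among the FOS-type subunits, FOSL2 fell, and the other three did not pass the test. FOSL2, also known as FRA-2 and a weaker activator than FOS, was at 188 and 297 CPM with DMSO and at 73.4 and 91.3 CPM with ACBI1. The ACBI1 libraries were below both DMSO libraries and differed only 1.24-fold from each other. Its level was 2.94-fold lower, a log2 change of -1.56 (SE 0.26, edgeR adjusted p 0.0153), and stayed between -1.85 and -1.19 with any library left out, with an adjusted p of at most 0.0446. The gene lies on the plus strand at chr2:28392448-28417312.

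FOS was the subunit with the widest spread among the FOS-type genes in the DMSO group. Its control libraries were at 278 and 753 CPM, those with ACBI1 at 143 and 452 CPM. In each group the library labelled replicate 2 was the higher, by 2.71-fold with DMSO and 3.17-fold with ACBI1, and the groups overlapped. The log2 change of -0.79 (SE 0.64) did not pass (adjusted p 0.430), and its sign turned to 0.10 without DMSO replicate 2. With the replicate number as a block, FOS was among the 6 subunits called lower (log2 change -0.85, edgeR adjusted p 0.000734). That fit called 7909 of all 19159 genes tested, 4201 of them lower, against 3331 and 2037 without the block. The labels do not say that a number marks a shared batch. FOSB, an immediate early partner of JUN like FOS, was at 275 and 346 CPM with DMSO and at 240 and 527 CPM with ACBI1. ACBI1 replicate 1 had the lowest and ACBI1 replicate 2 the highest FOSB value of the 4 libraries. FOS lies at chr14:75278774-75282230 and FOSB at chr19:45467995-45475179, both on the plus strand. For FOSB, the log2 change of 0.31 (SE 0.37, adjusted p 0.611) became -0.38 without ACBI1 replicate 2.

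FOSL1, or FRA-1, was at 202 and 142 CPM in control cells and at 231 and 187 CPM after ACBI1. Here the library labelled replicate 1 was the higher in each group, the reverse of FOS. The log2 change was 0.28 (SE 0.23), with an adjusted p of 0.439, and it ranged from 0.05 to 0.56 with each library left out. That FOSL1 did not pass does not show that its level was equal in the groups.

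The FOSL2 promoter (chr2:28392608-28392907, plus strand) was the only 1 among the 8 matched subunits with TGANTCA in this window, at 5 to 11 bases after the start, and it also held TGACGT at 66 to 61 bases before it. TGANTCA was found in 7.71% of all promoters and TGACGT in 7.98%. Of the genes tested with a promoter listed, 7.40% held TGANTCA and 13.6% TGACGT in any of their promoters. FOS and FOSB held TGACGT at nearly the same distance, 64 to 59 and 60 to 55 bases before the start, so this match was shared by a FOS-type gene that fell and by others that did not pass the test.
FOSL2: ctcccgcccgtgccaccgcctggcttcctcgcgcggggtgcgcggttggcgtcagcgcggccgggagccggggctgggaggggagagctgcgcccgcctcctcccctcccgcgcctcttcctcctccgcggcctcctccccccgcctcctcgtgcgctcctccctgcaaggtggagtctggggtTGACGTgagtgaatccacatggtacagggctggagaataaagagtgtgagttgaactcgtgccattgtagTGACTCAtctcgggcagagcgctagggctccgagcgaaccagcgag

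ATF3, a stress-induced subunit that represses as a pair with itself and can activate with JUN, had the smallest adjusted p of the 10. It was at 243 and 287 CPM with DMSO and at 78.7 and 113 CPM with ACBI1. The groups were well apart, with 1.18-fold between the DMSO libraries and 1.43-fold between the ACBI1 libraries. The level was 2.77-fold lower, or -1.47 on the log2 scale (SE 0.23, edgeR adjusted p 0.0118). ATF3 was called with each library left out in turn, with log2 changes from -1.76 to -1.23. The gene spans chr1:212565334-212620777 on the plus strand.

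BATF3, known for its part in the development of dendritic cells, was a low transcript and the only subunit above the control in both ACBI1 libraries. Control libraries held 287 and 50 BATF3 counts (3.52 and 0.695 CPM), and ACBI1 libraries held 1378 and 334 (15.4 and 5.09 CPM). The library labelled replicate 1 was the higher in each group, by 5.07-fold with DMSO and 3.02-fold with ACBI1. The log2 change of 2.28 (SE 0.83) did not pass (adjusted p 0.115). It was called without DMSO replicate 1 (3.88, adjusted p 0.00494) and without ACBI1 replicate 2 (2.86, adjusted p 0.0408), and fell short without ACBI1 replicate 1 (1.27, adjusted p 0.357). BATF2, an interferon-inducible subunit, had the lowest mean of the 10 in each group, at 0.626 and 0.862 CPM with DMSO and at 0.503 and 0.305 CPM with ACBI1. Its log2 change of -0.87 (SE 0.45) rested on 20 to 62 counts per library and did not pass (adjusted p 0.229).

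ATF3 and BATF3 lie next to each other on chromosome 1, on opposite strands and 65640 bp apart, with FAM71A as the only coding gene between them (GENCODE 29). BATF3 is at chr1:212686418-212699985. ATF3 fell, and BATF3 did not pass the test. BATF2 (chr11:64987943-64997045) and FOSL1 (chr11:65892049-65900573) share chromosome 11, 895003 bp apart, both on the minus strand. FOS sits in another group of such genes on chromosome 14, followed by JDP2 after 145485 bp and by BATF after 240194 bp. JDP2, a repressor that pairs with JUN, fell from 17.9 and 16.5 CPM to 10.5 and 8.02 CPM, or -0.89 on the log2 scale (SE 0.22, adjusted p 0.0439), a call lost with any of the 4 libraries left out. BATF, at 5 and 2 counts in control cells against 1 and 0 after ACBI1, had too few to test.

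Of the 2 ATF3 start sites in the table, the upstream 1 (chr1:212565157-212565456, plus strand) held TGACATCA, the same 8 letters as the JUN promoter, at 123 to 116 bases before the start. It is shown for the match it shares with JUN, while the other ATF3 start site held none of the sites searched. BATF2 held TGACATCA too, 132 to 125 bases before its start.
ATF3: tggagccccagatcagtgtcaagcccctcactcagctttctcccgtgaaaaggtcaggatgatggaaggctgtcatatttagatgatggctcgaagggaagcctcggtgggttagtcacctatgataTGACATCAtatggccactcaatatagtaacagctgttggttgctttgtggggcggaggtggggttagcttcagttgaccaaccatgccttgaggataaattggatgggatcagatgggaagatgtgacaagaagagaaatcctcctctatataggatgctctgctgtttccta

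**Figure D2:**
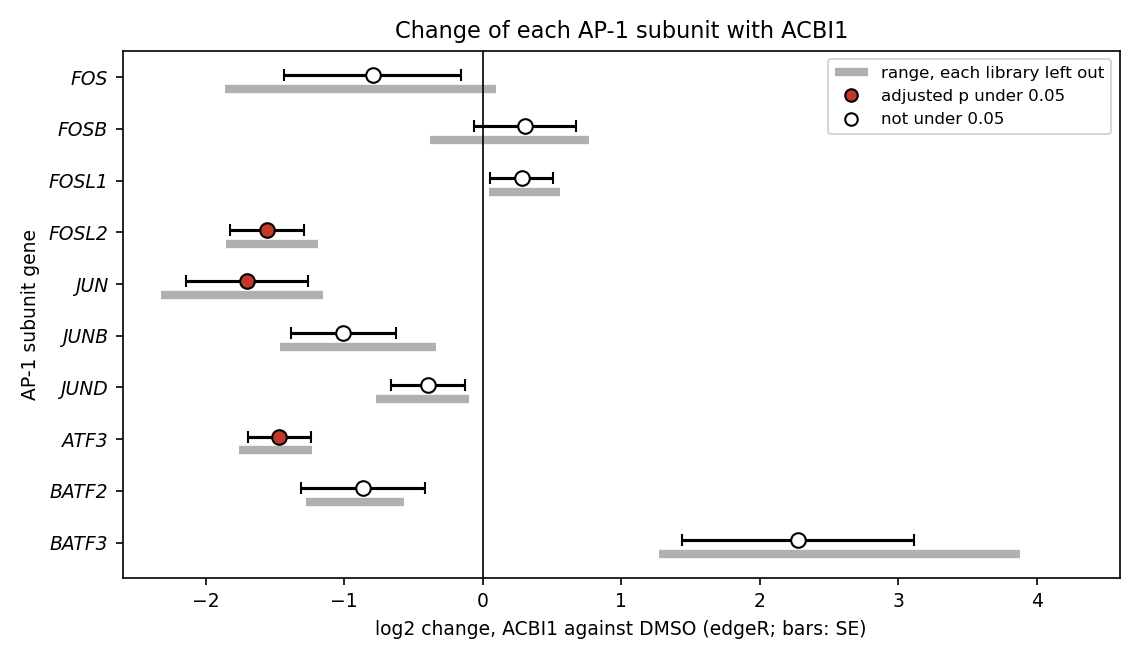
Fitted log2 change (ACBI1 against DMSO, points with SE) of each AP-1 subunit, and in grey the range with each of the 4 libraries left out in turn. FOSL2, JUN and ATF3 are filled because their adjusted p was under 0.05, and the grey range crosses 0 for FOS and FOSB.

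In the JUN-type counts, the share of JUN was lower and that of JUND higher in both ACBI1 libraries. Shares are parts of the same whole, so a lower share of JUN goes with higher shares of the others. The level of JUND itself was not higher with ACBI1 (log2 change -0.40, with groups that overlapped). JUN held 50.1% and 50.4% of the summed JUN, JUNB and JUND counts in the control, and 30.2% and 38.8% of them with ACBI1. JUND went from 15.8% and 10.8% to 22.0% and 21.7%, and JUNB from 34.1% and 38.9% to 47.8% and 39.5%. By counts JUN held the largest share in both DMSO libraries and JUNB in both ACBI1 libraries, but divided by exonic length JUNB led in all 4, at 45.3% and 51.6% with DMSO and 56.3% and 48.9% with ACBI1, which overlap. The mean shares were 50.2% ± 0.202 and 34.5% ± 6.07 for JUN, and 13.3% ± 3.56 and 21.9% ± 0.182 for JUND (SD, n = 2). For JUN and JUND the groups did not overlap on the count scale or per length. These shares were not tested, and by CPM 63.2% of all genes tested had groups that did not overlap.

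Within the FOS-type counts, the FOSL2 share was lower and the FOSB share higher in both ACBI1 libraries. Here too the shares depend on each other, and the level of FOSB itself overlapped between the groups (log2 change 0.31). FOSL2 held 19.9% and 19.3% with DMSO and 10.7% and 7.26% with ACBI1. FOSB held 29.2% and 22.5% with DMSO and 34.9% and 41.9% with ACBI1, which again did not overlap. By CPM, the same was so for 63.2% of all genes tested. The shares of FOS, 29.5% and 49.0% against 20.7% and 35.9%, overlapped, and so did those of FOSL1, 21.5% and 9.22% against 33.6% and 14.9%. Without DMSO replicate 2 the mean difference in the FOSL1 share was 2.79 percentage points, and without ACBI1 replicate 1 it was -0.48. FOSB was the largest FOS-type share in both ACBI1 libraries and FOS in DMSO replicate 2, while in DMSO replicate 1 FOS and FOSB differed by less than their counting intervals. These shares are of reads, so long transcripts count for more. Divided by exonic length, FOSL1 led in DMSO replicate 1 (39.9%) and ACBI1 replicate 1 (55.7%), and FOS in both libraries labelled replicate 2 (56.5% and 40.3%). Exact (Clopper-Pearson) 95% intervals of the shares reached at most 0.390 percentage points to either side and cover counting error only. The shares were not tested between groups; with 2 against 2 libraries an exact permutation p cannot go below 0.333.

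**Figure D3:**
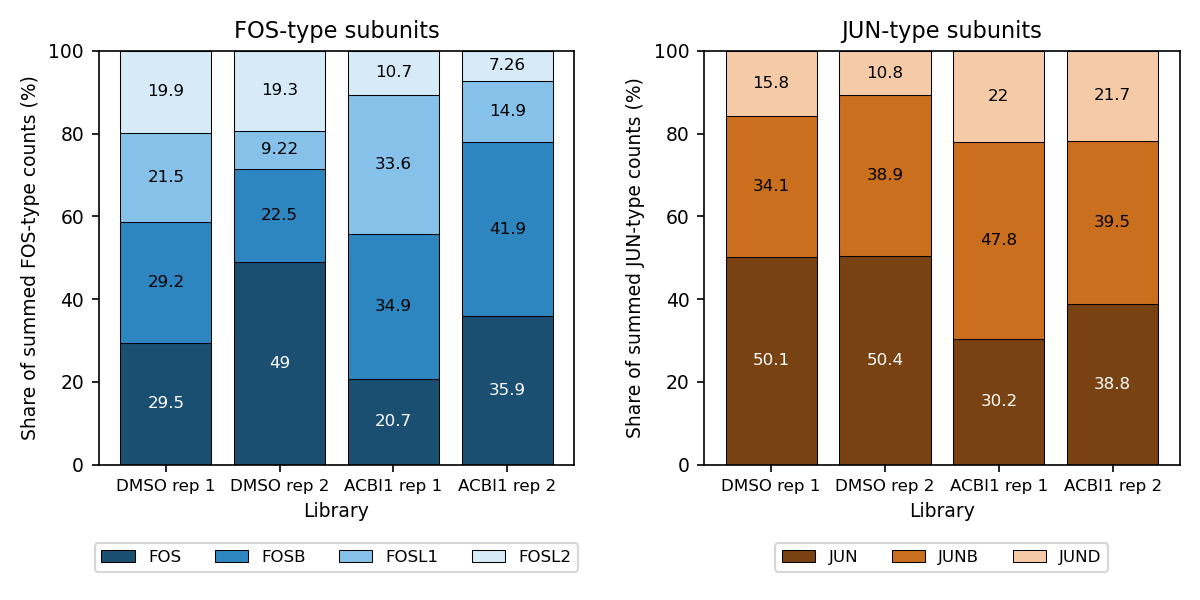
Share (%) of each subunit in the summed FOS-type counts (left) and JUN-type counts (right) of each library. JUN falls from 50.1% and 50.4% with DMSO to 30.2% and 38.8% with ACBI1, and FOSL2 from 19.9% and 19.3% to 10.7% and 7.26%.

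Between the families, summed JUN-type transcripts were lower and the ratio of FOS-type to JUN-type higher in both ACBI1 libraries. These sums and ratios were not tested, and 63.2% of all genes tested had groups that did not overlap. Summed JUN-type transcripts were at 1444 and 2770.1 CPM with DMSO and at 706 and 1125 CPM with ACBI1. Summed FOS-type transcripts were at 943 and 1537 CPM with DMSO and at 688 and 1257 CPM with ACBI1, and overlapped. The ratio of FOS-type to JUN-type CPM was 0.653 and 0.555 with DMSO and 0.974 and 1.12 with ACBI1, and per length it was 0.450 and 0.359 against 0.669 and 0.694. All 10 subunits together made up 0.252% and 0.451% of gene counts with DMSO and 0.155% and 0.255% with ACBI1, with the libraries labelled replicate 2 the higher in each group.

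Levels of different genes were compared per length, as CPM per kb of exon. JUNB led with DMSO at 431 ± 227, before JUN at 299 ± 134, FOS at 159 ± 104 and JUND at 141 ± 26.5 (SD, n = 2). Neighbours in that order overlapped across libraries. Within each DMSO library, though, JUNB was above JUN and JUN above FOS, while FOS and JUND changed places. FOSL1 followed at 91.2 ± 22.7, ATF3 at 65.6 ± 7.74, FOSB at 55.9 ± 9.05 and FOSL2 at 33.9 ± 10.8 (SD, n = 2). Of these neighbours only ATF3 and FOSB overlapped across libraries, and ATF3 was above FOSB within each DMSO library. With ACBI1, JUNB still led at 215 ± 41.5 and did not overlap the next, FOSL1 at 111 ± 16.7 (SD, n = 2). JUND at 107 ± 33.9, JUN at 91.8 ± 44.6, FOS at 91.7 ± 67.5 and FOSB at 69.1 ± 36.5 came next (SD, n = 2), and each overlapped its neighbour. ATF3 at 23.7 ± 5.95 and FOSL2 at 11.5 ± 1.76 were below all of these. BATF3 and BATF2 were last in both groups, at 0.778 ± 0.737 and 0.262 ± 0.0586 with DMSO and at 3.78 ± 2.68 and 0.142 ± 0.0491 with ACBI1 (SD, n = 2), and overlapped each other in the DMSO group only.

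Other genes of the basic leucine zipper class can share partners or sites with AP-1. This list and the related lists below were chosen with earlier results of these data known, so their shares of called genes are not independent of them. Of 27 listed, 25 were tested, and 8 were called, all lower (32.0%, beside 17.4% called and 10.6% called lower among all genes tested), with a median log2 change of -0.32. NFE2L1, a regulator of proteasome genes, fell from 1299 ± 374 to 350.4 ± 57.6 CPM (SD, n = 2; log2 change -1.89, adjusted p 0.00930), and CEBPD, an inflammatory factor, by 1.78 on the log2 scale (adjusted p 0.0239). Fewer genes of this list were called without DMSO replicate 2 or without either ACBI1 replicate, and fewer among all genes tested as well.

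The MAP kinase chain, which carries signals to AP-1 genes and proteins, had a share of called genes near that of all genes tested. All 42 genes were tested and 7 were called (16.7%, beside 17.4%), with a median log2 change of -0.04. The 4 called higher were MAPK11 (p38 beta), SRF, the serum response factor that binds the FOS promoter, HRAS and MAPKAPK3. MAPK11 rose from 1.67 ± 0.260 to 6.86 ± 0.516 CPM and SRF from 77.3 ± 9.33 to 148 ± 10.5 CPM (SD, n = 2; adjusted p 0.0182, or 0.0686 without ACBI1 replicate 1). Lower were MAP3K8, a kinase that activates ERK and JNK (log2 change -2.20, adjusted p 0.00431), RPS6KA2 (-1.97, adjusted p 0.00401) and MEF2D (-0.70, adjusted p 0.0351). HRAS, MAPKAPK3 and MEF2D lay outside the rule for naming and were named after their values were seen, and each of these 3 lost its call in at least 3 of the 4 fits with a library left out. The number called in this list also fell without DMSO replicate 2 or either ACBI1 replicate, as it did over all genes tested.

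Feedback inhibitors of the chain are themselves switched on by MAP kinase signals. Of 18, 4 were called, all lower (22.2%, beside 17.4% called and 10.6% called lower among all genes tested), with a median log2 change of -0.31. DUSP5, a nuclear phosphatase of ERK, fell from 112 ± 9.79 to 14.0 ± 1.78 CPM (SD, n = 2; log2 change -3.00, adjusted p 0.00141), and DUSP4 fell by 2.58 on the log2 scale (adjusted p 0.00259). SPRED3 followed at -2.17 (adjusted p 0.00651). SPRY2 stood at -1.63 (adjusted p 0.0384), at -0.92 without DMSO replicate 2, and lost its call without ACBI1 replicate 1 (adjusted p 0.0931). More genes of the list were called without DMSO replicate 1, and more among all genes tested as well.

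Other immediate early genes respond to the same signals as FOS and JUN. Of 24, 14 were called, all lower (58.3%, beside 10.6% called lower among all genes tested), with a median log2 change of -1.10. IER3, a survival gene of the early response, fell from 1044 ± 340.3 to 81.0 ± 26.1 CPM (SD, n = 2; log2 change -3.69, adjusted p 0.00366). The log2 change was -2.70 for EGR3 (adjusted p 0.0151), -2.40 for EGR2 (adjusted p 0.0251) and -2.39 for BTG2, an inhibitor of cell growth (adjusted p 0.0495). Without DMSO replicate 2 it was -1.52 for EGR2 and -1.06 for BTG2. BTG2 then missed the threshold (adjusted p 0.106), as it did without either ACBI1 replicate, and EGR2 did so without ACBI1 replicate 1 (adjusted p 0.0506). EGR1, named after its values were seen, was at 1534 and 1883 CPM with DMSO and at 712 and 805 CPM with ACBI1 (log2 change -1.17, adjusted p 0.0155, or 0.0813 without ACBI1 replicate 1). Fewer genes of the list were called without ACBI1 replicate 1, and fewer among all genes tested as well.

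Textbook target genes of AP-1 were mostly lower. Of 41 listed, 34 had enough counts to be tested, and 23 were called lower and 1 higher (70.6% called, beside 17.4% of all genes tested), with a median log2 change of -1.93. The list was chosen with earlier results of these data known, so its share of called genes is not independent of them. The rule named IL1B, CSF2, IL1A and IL6, all cytokine genes. With ACBI1, IL1B had 5 and 1 counts and CSF2 had 6 and 3, against at least 18690 counts in each DMSO library, so the size of their change is poorly set. The log2 change was -7.73 for IL1A and -6.80 for IL6. IL6 was at 316 and 134 CPM with DMSO and at 2.33 and 1.69 CPM with ACBI1 (SE of the log2 change 0.52, adjusted p 0.00231). PLAU, which encodes the protease urokinase and was named after its values were seen, fell from 221 ± 24.5 to 67.1 ± 6.89 CPM (SD, n = 2; log2 change -1.72, adjusted p 0.00453). The only 1 called higher was HMOX1, the haem oxygenase gene, from 16.8 and 24.8 CPM to 128 and 64.7 CPM (log2 change 2.21, adjusted p 0.0145). NF-kB and other factors also act on many of these genes, and the part of AP-1 in their change was not tested.

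**Figure D4:**
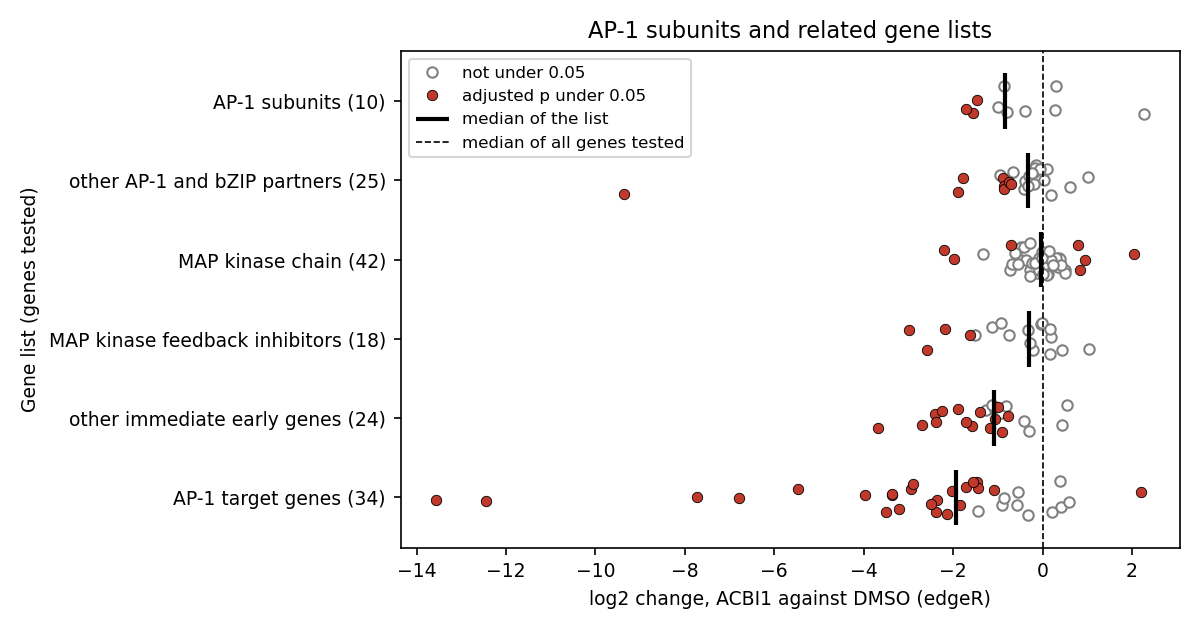
Log2 change (ACBI1 against DMSO) of each tested gene in the AP-1 subunit list and in 5 related lists, filled where the adjusted p was under 0.05, with the median of each list as a bar and that of all genes tested as a dashed line. The medians run from -1.93 for AP-1 target genes to -0.04 for the MAP kinase chain.

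The letters TGANTCA were also counted across promoters of the genes tested, 12359 of which matched the RefSeq table. The share with a match was 12.6% of 1437 genes called lower, 5.57% of 970 genes called higher and 7.40% of all those matched. For TGACGTCA the shares were 3.20%, 3.71% and 3.70%, for TGACATCA 3.27%, 2.27% and 2.14%, and for TGACGT 12.8%, 11.9% and 13.6%. These are counts of letters in a window of 300 bases and were not tested.

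The genes whose pattern over the 4 libraries was nearest to each called subunit were found by the distance between log2 CPM centred on the DMSO mean, among 11160 genes whose mean reached 5 CPM. Nearest to JUN were TIMP2 (distance 0.135), ALDOC (0.183) and BHLHE40 (0.236), in log2 units. HOMER3, CYB5R1 and PLA2R1 were nearest to FOSL2, at 0.111 to 0.127, and PML, BACE1 and NUAK2 to ATF3, at 0.0424 to 0.0646. Within a distance of 0.5 there were 40 genes for JUN, 177 for FOSL2 and 208 for ATF3.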

How the data were processed

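RNA-seq libraries from H1792 cells, 2 with DMSO and 2 with ACBI1, were grouped and numbered by their titles. The files deposited by the authors hold whole-number read counts per gene symbol, not normalized. The submitters' processing notes name TopHat2 2.1.1, HTSeq 0.11.0 and hg38; the annotation and the strand setting are not given in the sources used here. Per the labels' protocols, the library kit is one sold for DNA, so the step from RNA to DNA is not stated. Without a known strand setting, reads from genes that overlap on opposite strands cannot be told apart.

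Lines for reads given to no gene, 13.9% to 15.4% of reads listed, stayed out of library sizes and tests. Gene counts of 64281850 to 86010100 per library set the precision, and a floor of 3 counts was used for genes at 0. Genes were filtered with filterByExpr (minimum count 10, total 15), which kept 19159 of 61228. TMM factors were 0.958 and 0.983 for DMSO and 1.04 and 1.02 for ACBI1. The test was edgeR's two-sided quasi-likelihood F test (version 4.0.16, R 4.3.3; estimateDisp, glmQLFit, glmQLFTest) on treatment alone, with Benjamini-Hochberg adjustment over all genes tested and a threshold of 0.05. The common biological coefficient of variation was 0.244. CPM use TMM-scaled library sizes, and log2 CPM a prior count of 2. SEs were derived as the absolute log2 change over the root of its F value. Gene lengths, positions and overlaps came from GENCODE 29, promoters from RefSeq. Scripts were tested on simulated data. The alternatives were other scalings and filters, DESeq2 1.42.0, limma-voom (limma 3.58.1), a threshold of 0.01, the replicate number as a block, and each library left out.

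The text names all 10 subunits, the degrader's targets, up to 4 called genes per related list (those of largest log2 change with a group mean of 1 CPM or more and groups that do not overlap), and the 3 genes nearest in pattern to each called subunit. Of the genes this rule takes, 1 is not reported here. Other genes are named as chosen after their values were seen. The subunits and lists were chosen with earlier results of these data known.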

Additional observations from a re-analysis of the deposited data

How the results depend on the processing

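Of the 10 subunits, JUN, FOSL2 and ATF3 were called lower in each of the 7 alternative fits on all 4 libraries at the threshold of 0.05, and no subunit changed direction in them; BATF2, too low for the filter at 5 CPM, had 6 such fits. At a threshold of 0.01 no subunit was called, against 3 at 0.05. The number called lower was 5 and the number called higher 1 when every gene with a count was fitted; the cause was not tested. With each library left out, 2 to 4 were called lower and 0 to 1 higher, where the group with 1 library is taken to vary like the other. The log2 change then ranged from -1.86 to 0.10 for FOS, reversed without DMSO replicate 2, and from -0.38 to 0.77 for FOSB, reversed without ACBI1 replicate 2. Over all genes, 3331 calls became 783 at a threshold of 0.01, 5518 with every gene with a count and 1682 without ACBI1 replicate 1.

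With the replicate number as a block, 6 subunits were called lower (FOS, FOSL2, JUN, JUNB, JUND and ATF3) and 1 higher (BATF3). The block raised the calls over all genes to 7909, and those in the lists to 13 for other bZIP partners, 20 for the MAP kinase chain and 10 for its feedback inhibitors. The labels do not say that a number marks a shared batch; the deviations of DMSO replicate 1 and ACBI1 replicate 1 from their group means correlated at 0.442 across genes, which are not independent.

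The lists of other bZIP partners, MAP kinase chain, immediate early genes and AP-1 targets had 1, 2, 2 and 14 calls at a threshold of 0.01. The feedback inhibitors had 9 with every gene with a count and 7 with DESeq2. With each library left out the calls were 2 to 8 for other bZIP partners, 3 to 6 for the MAP kinase chain, 3 to 8 for feedback inhibitors, 6 to 20 for immediate early genes and 21 to 25 for AP-1 targets.

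For the shares, the difference between group means (ACBI1 minus DMSO, in percentage points) was 12.6 for FOSB and -10.6 for FOSL2 by counts, and 6.76 and -5.75 per length. As shares of all 10 subunits, the differences were 0.36 for FOS, -2.50 for FOSL2, -0.85 for JUNB and 2.54 for JUND, against -10.9 for FOS, 7.12 for JUNB and 8.59 for JUND within the family; the denominators differ. With each library left out, the differences within the family were -20.6 to -1.15 for FOS, 9.12 to 16.1 for FOSB, -0.48 to 18.3 for FOSL1, -12.4 to -8.93 for FOSL2, -20.0 to -11.4 for JUN, 2.96 to 11.3 for JUNB and 6.07 to 11.1 for JUND. BATF2, at 20 to 62 counts per library, is the subunit most limited by depth.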
